A study of Drosophila melanogaster with 14 samples.

Results

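Proximal 2L is the last 3 Mb of the left arm of chromosome 2 on the centromere side, taken here as every 1-kb bin of the dm3 genome on 2L from 20000001 to the end of the arm. It held 3012 of the 168744 bins of the genome. The rule used position alone and no measured value. The bin just outside it, starting at 19999001, held 1 read in the run-on control and no read elsewhere, and the first bin inside it held none in any library. Within the stretch lie both parts of the piRNA cluster locus 38C, called 38C_a (13 bins, 20104001 to 20117000) and 38C_b (80 bins, 20148001 to 20228000), which leaves 2919 bins as their surroundings. Cluster positions were rounded to kb and come from background knowledge, as do the edges of the histone gene cluster.

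piRNA clusters are loci whose long transcripts are cut into PIWI-interacting RNAs, the small RNAs that guide silencing of transposons in the germline. Dual-strand clusters are read from both strands and, in the fly germline, are marked by Rhino, a chromatin protein that works with Deadlock and Cutoff. Cutoff resembles decapping and exonuclease enzymes of the DXO family and is known to guard cluster transcripts against termination and processing of the usual kind.

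The series asks, by its title, whether Cutoff suppresses termination by RNA polymerase II so that piRNA precursors are made. Ovaries of Drosophila melanogaster aged 3 to 14 days were used in every library. Ribosomal RNA was removed from total RNA, and poly(A) RNA was bound to beads. Nuclear run-on lets polymerases already at work in nuclei take up a bromo-nucleotide, and an antibody then captures the new RNA. All groups carried the driver P{GAL4::VP16-nos.UTR}CG6325MVD1, in which nanos sequences direct GAL4 to germ cells, so follicle cells of the ovary were not targeted. shCuff ovaries carried the hairpin TRiP.GL00054 at attP2 against cuff, and shWhite ovaries carried TRiP.HMS00017 at attP2 against the eye colour gene white. The run-on control was w[1118] with the driver alone, so run-on was compared with another control genotype than RNA. Each knockdown rests on a single hairpin line.

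Of 14 samples, 8 libraries were analysed. Total RNA had 2 shWhite and 2 shCuff libraries, poly(A) RNA 1 of each, and run-on 1 shCuff library and 1 driver control. Total RNA replicate 1 and poly(A) RNA belong to one library set by their titles, and total RNA replicate 2 and run-on to another. Libraries held 2438627 to 10932667 reads, and values are given as reads and as RPM, reads per 1000000 reads of the library. As a check of the tissue, the chorion gene cluster at 66D, which encodes eggshell proteins of follicle cells, held 12439 RPM in shWhite and 23381 in shCuff in total RNA replicate 1, and 16335 and 23041 in replicate 2. It held 16244 and 29428 RPM in poly(A) RNA, and 3146 and 2173 in run-on. It was thus higher in shCuff in each RNA pair and lower in run-on, and its part in the results was not tested. As the counts are not split by strand, sense and antisense transcripts of the clusters cannot be told apart.

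Proximal 2L took a similar share of reads in control and shCuff libraries. It held 1.78% of the shWhite and 1.68% of the shCuff reads in total RNA replicate 1, 2.99% and 2.89% in replicate 2, and 1.78% and 1.71% in poly(A) RNA. In run-on it held 2.09% of the control and 1.88% of the shCuff reads. Reads were concentrated: 10 of the 3012 bins held 58.4% to 66.7% of the reads of the stretch in the RNA libraries and 31.2% to 35.2% in run-on. Between 18.9% and 31.4% of the bins had any read in the RNA libraries, against 47.8% and 52.4% in run-on. shCuff replicate 2 of total RNA stood apart in how its reads were spread: 9.65% of its covered bins held 1 to 3 reads, against 32.1% to 50.9% in the other 7 libraries. For the clusters, the interval between them and the quiet windows, the number of bins behind the reads of that library is therefore given.

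In control ovaries, 38C lay below the mean level of its surroundings, a mean that a few bins carry. 38C_a held 2.02 RPM per kb in shWhite replicate 1 and 0.581 in shWhite replicate 2 of total RNA, 0.193 for poly(A) and 3.06 for run-on. 38C_b held 0.916, 0.376, 0.0657 and 1.95 RPM per kb in the same 4 libraries. The surroundings held 6.06, 10.2, 6.08 and 7.09 RPM per kb. Both clusters thus lay below the mean of their surroundings in all 4 control libraries, with the smallest gap for 38C_a in run-on and the largest for 38C_b in poly(A) RNA.

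The levels of the surroundings differed widely along the arm. The segment distal of 38C_a held 10.4 and 11.04 RPM per kb in shWhite total RNA, and the 1187 kb from 38C_b to the histone gene cluster held 3.54 and 5.61. The 457 kb from the histone genes to 22000000 held 8.54 and 16.1, and the pericentric 1012 kb beyond held 8.38 and 14.6. The histone gene cluster itself, an array of repeated copies of the same genes, had only 9 to 48 reads per library over 128 kb and is not interpreted. A single pericentric bin from 22247001 to 22248000 held 26.7% to 35.0% of all reads of the stretch in the RNA libraries.

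**Figure D1:**
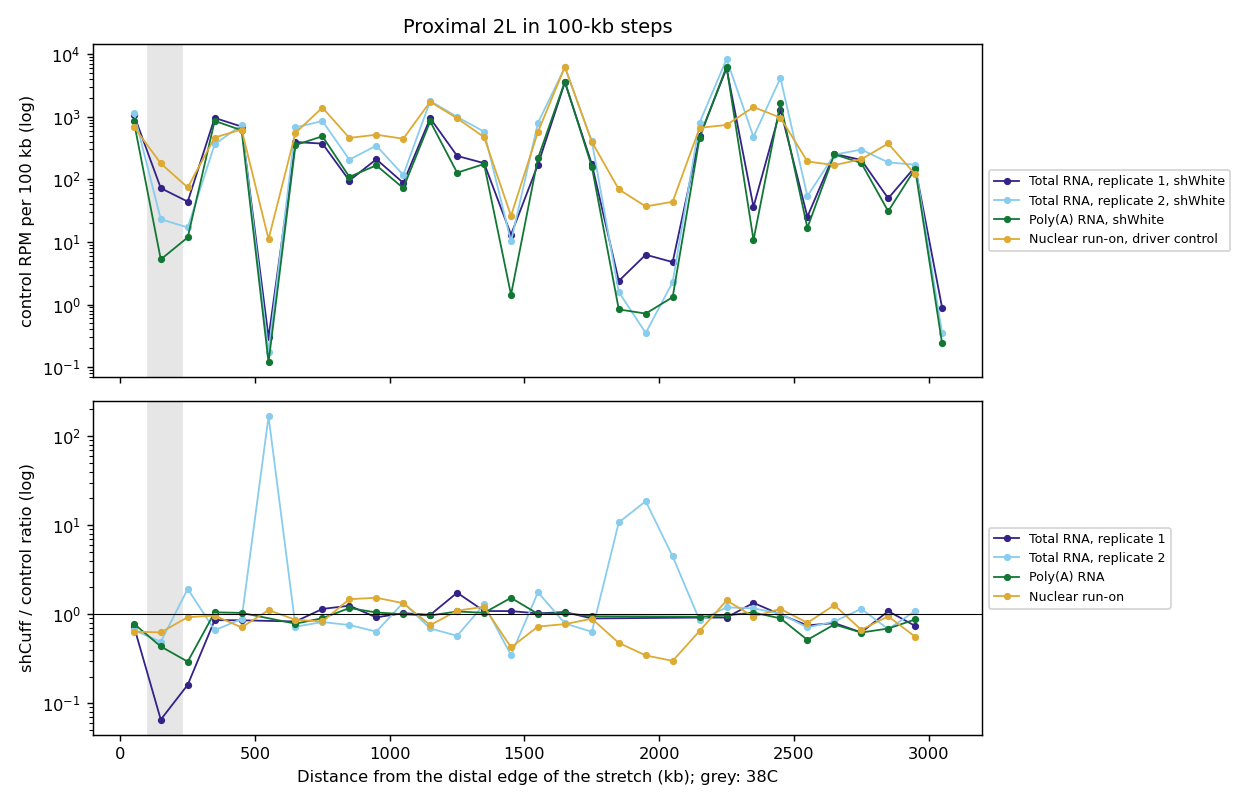
Proximal 2L in steps of 100 kb, with distance from the distal edge of the stretch in kb on the horizontal axis and 38C in grey. The upper panel shows the control RPM per step and the lower panel the shCuff/control ratio of RPM, both on log axes with 1 line per pair of libraries; ratios with fewer than 20 reads over the pair or with no shCuff read are not drawn, and lines join the steps on either side. Most drawn ratios lie near 1, the lowest drawn point of total RNA replicate 1 is at 38C, and the highest points belong to total RNA replicate 2 in steps with few control reads. The step from 21900001, with 21 shWhite reads and no shCuff read in total RNA replicate 1, is among those not drawn.

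Cluster RNA differed from the surroundings in how it divided between library types. In shWhite, the poly(A) level of 38C_a was 0.0958 times its total RNA level in the same library set (95% exact interval 0.0565 to 0.156), and that of 38C_b was 0.0718 times (0.0508 to 0.0993). For the surroundings the ratio was 1.00 (0.995 to 1.01). Both cluster intervals lay below that of the surroundings. These intervals, and all others on ratios of 2 libraries, cover counting error only.

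Nascent RNA showed the opposite balance. In the control, the run-on level of 38C_a was 5.26 times its level in total RNA replicate 2 (3.64 to 7.72) and that of 38C_b was 5.18 times (4.32 to 6.25), against 0.692 (0.685 to 0.699) for the surroundings. The numerator came from driver-only ovaries and the denominator from shWhite ovaries. The pericentric part had a ratio of 0.333, and the segment from 38C_b to the histone genes had 1.15. The pericentric value includes the bin from 22247001 to 22248000, with 432 RPM in the run-on control and 8005 in shWhite replicate 2. Without that bin the ratio of the surroundings was 0.925 (0.915 to 0.935).

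A high run-on level relative to total RNA was not particular to the clusters. Of the 295 windows of 10 kb in the surroundings, 183 had less than 1 RPM in shWhite poly(A) RNA and lay outside the histone genes, a rule chosen after the data had been seen. These quiet windows, without 1 window described at the end, held 1791 bins. They had 0.0737 and 0.138 RPM per kb in shWhite total RNA and 1.46 in the run-on control, so their run-on to total RNA ratio was 10.6 (9.99 to 11.2). Both clusters lay above the level of these windows in total RNA and in run-on. Their low poly(A) level is set by the rule and is not compared. Their total RNA level, the denominator of the run-on to total RNA ratio, is not independent of that rule.

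**Figure D2:**
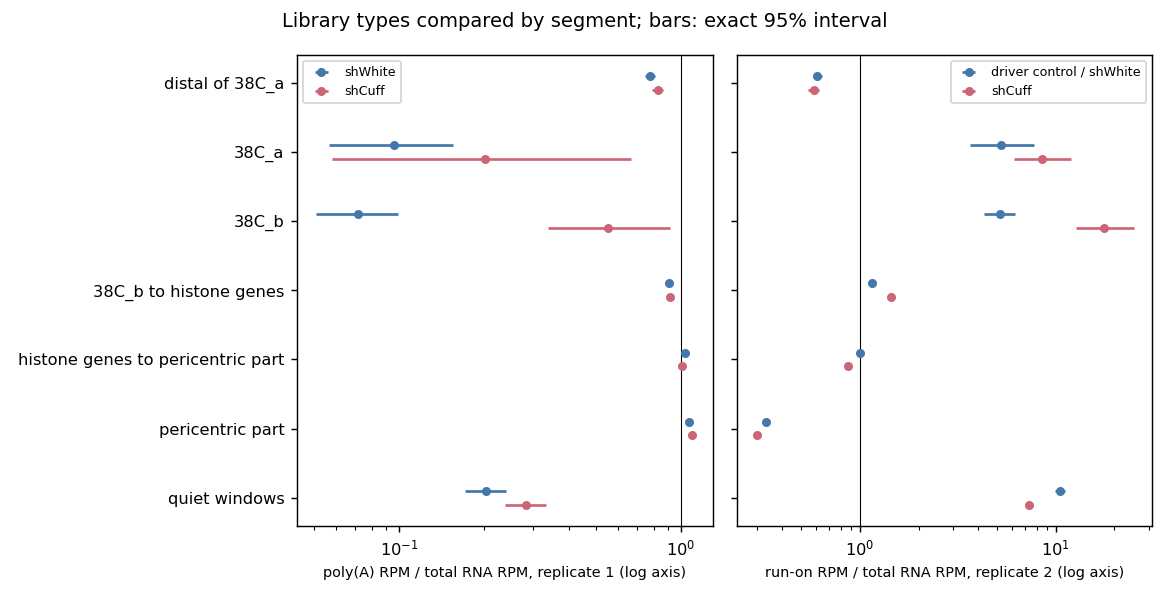
Ratios between library types for each segment of proximal 2L, on log axes, with poly(A) over total RNA replicate 1 on the left and run-on over total RNA replicate 2 on the right. Points are single-library ratios in controls and in shCuff, and bars are exact 95% intervals from read counts. 38C_a and 38C_b stand near 0.1 on the left in shWhite and above 5 on the right; in shCuff 38C_b moves to 0.550 on the left and 17.6 on the right, and the quiet windows' position on the left is set by the rule that chose them.

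The main comparison was between shCuff and control. In total RNA, 38C_b had 246 reads in shWhite and 26 in shCuff in the replicate 1 pair (73.3 and 8.81 RPM), and 171 and 42 reads in the replicate 2 pair (30.06 and 5.72 RPM). Both shCuff libraries lay below both shWhite libraries. The ratio was 0.12 (0.0770 to 0.181) in the first pair and 0.190 (0.132 to 0.268) in the second.

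Summed over all their bins, the surroundings differed far less between shCuff and shWhite in the same libraries. They had 17673 RPM in shWhite and 16811 in shCuff in replicate 1, and 29897 and 28859 in replicate 2, which gives ratios of 0.951 (0.940 to 0.963) and 0.965 (0.959 to 0.971). Relative to them, the ratio of 38C_b was 0.126 (0.0844 to 0.189) in the first pair and 0.197 (0.141 to 0.276) in the second. Fewer cells of a type and less RNA per cell cannot be told apart in whole ovaries.

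Across both pairs, edgeR's quasi-likelihood test with a term for library set gave 38C_b a log2 change of -2.71 (SE 0.50), with a Benjamini-Hochberg adjusted p of 0.21 over 6557 features of the genome and an unadjusted p of 0.000767. Scaled to the reads of the surroundings in place of the library totals, so that the difference between cluster and surroundings was itself tested, edgeR gave -2.65 (SE 0.49) with an adjusted p of 0.0807. Neither passed the threshold of 0.05. DESeq2 called the cluster lower at a log2 change of -2.91 with an adjusted p of 0.00108, limma on log2(RPM + 1) called it lower at -2.56 with an adjusted p of 3.74e-05, and edgeR without a filter on low counts called it at an adjusted p of 0.000366. edgeR without the term for library set gave -2.83 with an adjusted p of 1. The direction was the same in each of these fits, and the call was not.

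38C_b stood at the low end of the stretch. There were 99 windows of the surroundings with 20 reads or more in both total RNA pairs, and none of them had a lower fitted change than 38C_b. Their median was -0.11 on the log2 scale and 85 of the 99 lay within 2-fold of no change. These windows of 10 kb are shorter than the cluster of 80 kb.

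38C_a gave different values in the 2 pairs. It had 88 reads in shWhite and 8 in shCuff in replicate 1 (26.2 and 2.71 RPM, ratio 0.103, 0.0433 to 0.213), but 43 and 50 reads in replicate 2 (7.56 and 6.81 RPM, ratio 0.901, 0.587 to 1.39). All 50 shCuff reads of replicate 2 lay in the bin from 20105001 to 20106000, which had 11 in shWhite. Without that bin the second pair had 32 reads in shWhite and 0 in shCuff, with an upper limit of 0.0946 for the ratio. edgeR gave a log2 change of -1.61 (SE 0.96) with an adjusted p of 0.603, and -1.55 (SE 0.90) with an adjusted p of 0.579 relative to the surroundings. 3 of the 99 windows of the surroundings had a lower fitted change.

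The difference of 38C_b in total RNA was spread over the cluster. Of its 38 bins with reads in shWhite replicate 1, 31 had none in shCuff, or 81.6%, where 24.2% of such bins of all levels had none over the genome. In replicate 2 it was 25 of 28, or 89.3%, against 40.2%. These shares were not matched for level: no bin of 38C_b held more than 29 shWhite reads in replicate 1 or 17 in replicate 2. shCuff replicate 2 also had few thinly covered bins in the whole stretch, with 1 to 3 reads in 9.65% of its covered bins. The 38 bins with a read in either library of replicate 1 included 36, or 94.7%, that were lower in RPM in shCuff, where 45.7% of bins with reads were lower over the whole genome. In replicate 2, 26 of 28, or 92.9%, were lower, against 59.6% over the genome. For 38C_a the counts were 12 of 12 and 9 of 10.

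By sections of 10 kb, the first section of 38C_b, from 20148001 to 20158000, carried the most reads in shWhite replicate 1. It had 80 reads in shWhite and 3 in shCuff in replicate 1, and 28 and 0 in replicate 2. The bins from 20149001 to 20152000 led it, with 29, 18 and 16 reads in shWhite replicate 1 and none in either shCuff library. The sections from 20178001 to 20198000 had no read in any of the 8 libraries, whatever the assay.

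A few bins held as many reads in shCuff as in shWhite. The bin from 20222001 to 20223000 had 15 reads in shWhite and 14 in shCuff in replicate 1 (4.47 and 4.75 RPM), but 9 and 0 in replicate 2. In shCuff replicate 2, the 42 reads of 38C_b lay in 3 bins. The largest of these, from 20204001 to 20205000, had 8 reads in shWhite and 21 in shCuff, and without it the ratio of the second pair was 0.0998 (0.0601 to 0.158).

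**Figure D3:**
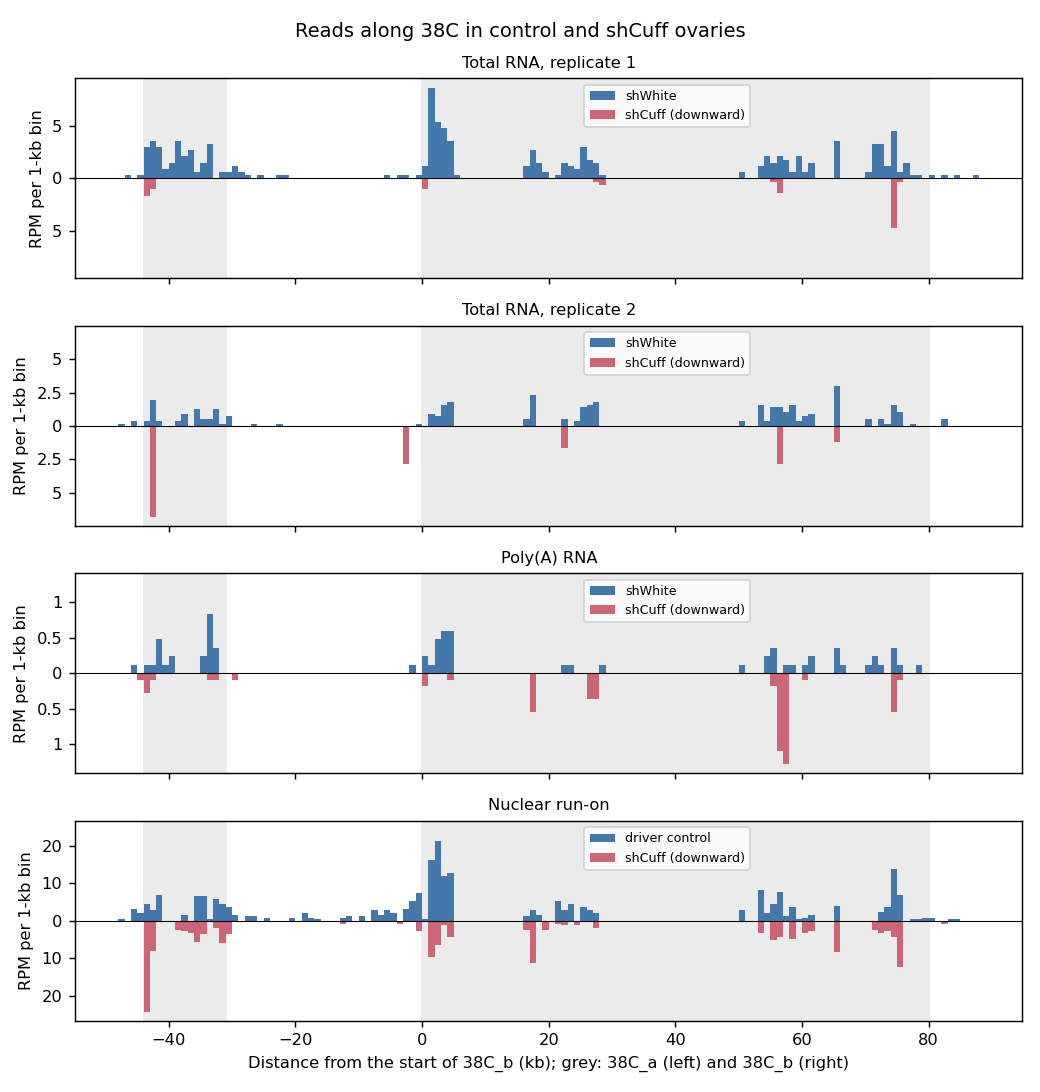
RPM per 1-kb bin along 38C, with distance from the start of 38C_b in kb on the horizontal axis, controls upward in blue and shCuff downward in red, and the clusters in grey; each panel is a pair of libraries and has its own scale. In total RNA the shCuff libraries have reads in few bins, 7 of 80 and 3 of 80 in 38C_b, while in run-on 26 bins of 38C_b have reads in shCuff and 32 in the control.

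In poly(A) RNA, the clusters were near the limit of detection and differed from each other. 38C_a had 21 reads in shWhite and 6 in shCuff (2.51 and 0.549 RPM), a ratio of 0.219 (0.0722 to 0.560). 38C_b had 44 and 53 reads (5.26 and 4.85 RPM), a ratio of 0.922 (0.606 to 1.41). The surroundings had a ratio of 0.963 (0.957 to 0.970), so 38C_a lay below them at 0.227 times (0.0916 to 0.562), and for 38C_b a difference was not detectable at this depth (0.957, 0.641 to 1.43). Poly(A) RNA had 1 library per group and no test.

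The poly(A) reads of 38C_b were placed differently. In its first section they went from 17 in shWhite to 3 in shCuff, a ratio of 0.135 (0.0254 to 0.467). In the section from 20198001 to 20208000 they went from 8 to 28, a ratio of 2.68 (1.19 to 6.80), and the bin from 20205001 to 20206000 alone went from 1 to 14. Of 23 bins with reads in shWhite, 16 had none in shCuff, or 69.6%, against 15.2% of such bins of all levels over the genome. No bin of 38C_b held more than 5 shWhite reads, and the shares were not matched for level. Of the 27 bins with reads in either library, 21, or 77.8%, were lower in shCuff, against 42.8% over the genome.

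The balance of 38C_b between poly(A) and total RNA differed in shCuff. The poly(A) to total RNA ratio of replicate 1 was 0.550 (0.338 to 0.916) in shCuff, against 0.0718 in shWhite. The log2 difference between the poly(A) and the total RNA response was 2.94 (2.12 to 3.76) for 38C_b, 1.08 (-0.59 to 2.75) for 38C_a and 0.018 (-0.0014 to 0.038) for the surroundings. The interval of 38C_a includes 0.

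In nuclear run-on, 38C_b was lower and 38C_a was higher in shCuff. 38C_b had 380 reads in the driver control and 253 in shCuff (155.8 and 100.7 RPM), a ratio of 0.646 (0.549 to 0.760). 38C_a had 97 and 146 reads (39.8 and 58.1 RPM), a ratio of 1.46 (1.12 to 1.91). The surroundings had a ratio of 0.899 (0.888 to 0.910), so 38C_b lay at 0.719 times (0.613 to 0.843) and 38C_a at 1.63 times (1.26 to 2.10) the surroundings.

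The excess of 38C_a rested on its first bin. The bin from 20104001 to 20105000 had 11 reads in the control and 61 in shCuff, and without it the counts were 86 and 85 and the ratio 0.960 (0.703 to 1.31). Of the 11 bins of 38C_a with run-on reads, 5 were lower and 6 higher in shCuff. The next bin but 1, from 20106001 to 20107000, went the other way, from 17 reads to 1.

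Within 38C_b the run-on difference was uneven. The first section had 153 reads in the control and 56 in shCuff, a ratio of 0.355 (0.257 to 0.486), and the third, from 20168001 to 20178000, had 52 and 13, a ratio of 0.243 (0.121 to 0.452). The second section, from 20158001, had 14 and 40 reads, a ratio of 2.77 (1.48 to 5.52), and the seventh, from 20208001, had 16 and 36, a ratio of 2.18 (1.18 to 4.22). The last section had 70 and 63 reads, a ratio of 0.874 (0.612 to 1.25). 4 of the 6 sections with reads were thus lower and 2 higher, and of 36 bins with reads 23, or 63.9%, were lower, against 51.1% over the genome. Of 32 bins with reads in the control, 10 had none in shCuff, or 31.2%, against 23.5% of such bins of all levels over the genome. In total RNA replicate 1 the same second and seventh sections had 20 and 19 reads in shWhite and 0 in shCuff. In replicate 2 the second had 16 and 0 reads, and the seventh 26 and 9, a ratio of 0.268 (0.111 to 0.590).

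The run-on difference of 38C_b was smaller than its total RNA difference from the same library set. The log2 difference between these responses was 1.76 (1.23 to 2.30) for 38C_b and -0.10 (-0.12 to -0.082) for the surroundings. The run-on to total RNA ratio of 38C_b was 17.6 (12.7 to 25.04) in shCuff, against 5.18 in the control. The responses have different control genotypes, and the part of that in the result was not tested.

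The 31 kb between the clusters had run-on reads in the control that were largely missing in shCuff. This interval, from 20117001 to 20148000, had 101 run-on reads in the control and 25 in shCuff (41.4 and 9.95 RPM), a ratio of 0.240 (0.149 to 0.375), and the ratio of 38C_b relative to it was 2.69 (95% interval 1.69 to 4.29). Its section from 20137001 to 20147000 had 47 and 2 reads. In total RNA the interval had 16 reads in shWhite and 0 in shCuff in replicate 1, which allows a ratio of up to 0.295. In replicate 2 it had 7 and 21, with all 21 in a single bin. In poly(A) RNA it had 1 read in each library.

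The cluster 42AB on 2R, a major dual-strand source of germline piRNAs, was used for comparison. Its total RNA ratios were 0.107 (0.0891 to 0.127) and 0.190 (0.165 to 0.218), and the ratio of 38C_b relative to 42AB was 1.13 (0.724 to 1.75) in replicate 1 and 1.00 (0.695 to 1.44) in replicate 2. In run-on, 42AB had a ratio of 0.271 (0.249 to 0.294), so 38C_b was higher relative to it by 2.39 times (2.0 to 2.86). In total RNA replicate 1, a single bin held 57 of the 138 shCuff reads of 42AB, and the other bins of 42AB gave 0.0630 (0.0497 to 0.0788), against 0.12 (0.0770 to 0.181) for all of 38C_b. edgeR gave 42AB a log2 change of -2.80 (SE 0.32) with an adjusted p of 0.032, which was 1 without the term for library set. With a library left out, and with it that term, the log2 change was -3.425 to -2.165. The fitted changes of 38C_b and 42AB were of like size, with a larger SE for 38C_b, which had fewer reads. In poly(A) RNA, 42AB had a ratio of 0.765 (0.654 to 0.895), and 0.244 (0.193 to 0.306) without the bin that held 223 of its 324 shCuff reads. Other clusters differed from 42AB: in total RNA, 20A on X had ratios of 0.572 and 0.261. A cluster on chromosome 4 was higher in shCuff, at 2.85 and 3.52.

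**Figure D4:**
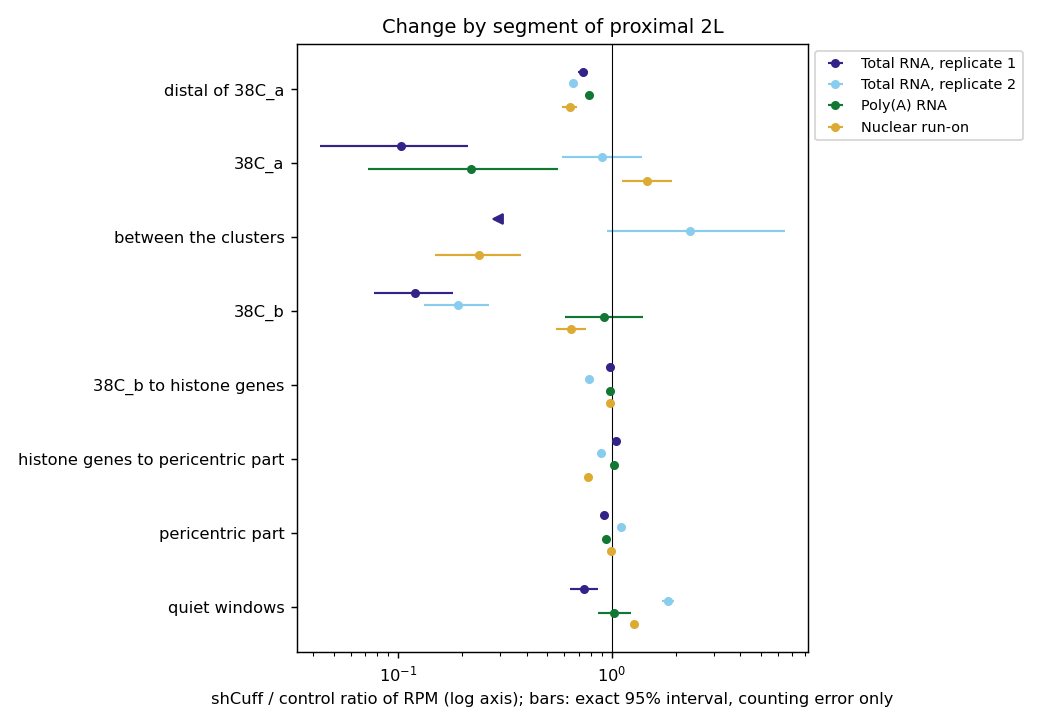
The shCuff/control ratio of RPM in each segment of proximal 2L, on a log axis, with 1 colour per pair of libraries and exact 95% intervals from read counts; where no bar is visible it is shorter than the point. The arrowhead between the clusters is the upper limit of total RNA replicate 1, which had no shCuff read there, and poly(A) RNA is not drawn there for lack of reads. The long segments lie between 0.635 and 1.11, while 38C_b lies at 0.12 and 0.190 in total RNA. The poly(A) ratio of the quiet windows is affected by the rule that chose them.

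The other segments had ratios nearer to 1. Distal of 38C_a, every pair was lower in shCuff, at 0.737 (0.699 to 0.776) and 0.663 (0.639 to 0.687) in total RNA, 0.784 (0.758 to 0.810) for poly(A) and 0.635 (0.588 to 0.686) for run-on. The segment from 38C_b to the histone genes had ratios of 0.983, 0.785, 0.987 and 0.985 in the same order, and that from the histone genes to the pericentric part had 1.05, 0.890, 1.03 and 0.772. The pericentric part had 0.918, 1.11, 0.942 and 0.996, and its ratio in total RNA replicate 2 was 0.993 (0.980 to 1.01) without its most abundant bin. For the distal segment, the log2 run-on response minus the log2 response of total RNA replicate 2 was -0.061 (-0.18 to 0.059), against 1.76 for 38C_b. With total RNA replicate 1, of the other library set, it was -0.21 (-0.35 to -0.082), against 2.43 for 38C_b.

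The quiet windows gave a comparison at a control level below that of the clusters. Without the window described next, they had 443 reads in shWhite and 289 in shCuff in replicate 1, a ratio of 0.742 (0.638 to 0.863), and 1405 and 3332 in replicate 2, a ratio of 1.84 (1.73 to 1.96). The pairs thus went opposite ways over all these windows. In replicate 2 the reads lay in 306 bins in shWhite and in 155 in shCuff. The quiet windows between 38C_b and the histone genes were higher in both pairs, at 1.33 (1.03 to 1.74) and 1.90 (1.74 to 2.07). The pericentric ones had 0.560 (0.449 to 0.696) and 1.38 (1.24 to 1.54). Those from the histone genes to the pericentric part went from 17.6 to 11.2 RPM in replicate 1 and from 24.8 to 73.8 in replicate 2. Covered bins in replicate 2 went from 114 to 72 between 38C_b and the histone genes and from 40 to 27 in the next segment. In the pericentric part they went from 146 to 51. Reads in replicate 2 rose in each of these segments. In run-on all these quiet windows together had 6373 and 8319 reads, a ratio of 1.27 (1.23 to 1.31). By segment the run-on ratio was 1.62 (1.54 to 1.69) between 38C_b and the histone genes, 0.752 (0.662 to 0.854) from there to the pericentric part and 1.05 (0.994 to 1.103) in the pericentric part. Relative to these windows 38C_b lay at 0.162 (0.105 to 0.249) and 0.104 (0.0735 to 0.146) in total RNA and at 0.510 (0.434 to 0.600) in run-on.

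Few windows of the stretch passed edgeR's test. Of 137 features of the stretch tested at 10 kb, 1 was called higher in shCuff and 0 lower at an adjusted p under 0.05, where 0.0915% and 0.0305% of the 6557 features of the genome were called. At an unadjusted p under 0.05, 10 of the 137 passed, 4 higher and 6 lower, against 9.12% over the genome. Of 453 bins tested at 1 kb, 2 were called higher and 0 lower, against 0.0767% and 0.0292% of 27388 bins. At an unadjusted p under 0.05, 31 of the 453 passed, 8 higher and 23 lower, against 4.62%. DESeq2 and limma each called 1 feature lower at 10 kb, which was 38C_b, and limma called 3 bins lower.

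The window that rose runs from 22280001 to 22290000 in the pericentric part. In total RNA it had 5 reads in shWhite and 157 in shCuff in replicate 1 (1.49 and 53.2 RPM) and 2 and 340 in replicate 2 (0.352 and 46.3 RPM). It had 1 and 510 reads in poly(A) RNA (0.12 and 46.6 RPM), while run-on had 42 and 287 (17.2 and 114 RPM). All 4 shCuff libraries exceeded their controls. edgeR gave a log2 change of 5.92 (SE 0.71) with an adjusted p of 0.041, and the adjusted p was 1 without the term for library set. With a library left out, the log2 change was 5.04 to 7.05. Those fits also had no term for library set, so they cannot show how the call depends on each library.

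The reads of that window lay in adjacent bins. The bin 2L:22281001, which ends at 22282000, had 0 reads in both shWhite libraries, 67 and 29 in shCuff total RNA, and 1 and 217 in poly(A) RNA. Its neighbour 2L:22282001 had 1 read in each shWhite library, 63 and 275 in shCuff total RNA, and 0 and 225 in poly(A) RNA. edgeR called both, with log2 changes of 8.67 (SE 1.76, adjusted p 0.0394) and 6.89 (SE 1.00, adjusted p 0.000365). As the first had no read in shWhite, its fitted value depends on the prior count, and the exact lower limit of its shCuff to shWhite ratio was 20.1 in replicate 1 and 5.71 in replicate 2. Both calls were lost without the term for library set and with TMM factors (adjusted p 0.418 for 2L:22281001 and 0.0658 for 2L:22282001). With a library left out, and with it the term for library set, the log2 changes were 7.44 to 9.51 for 2L:22281001 and 6.36 to 7.22 for 2L:22282001. With totals without the most abundant bin, 2L:22281001 had an adjusted p of 0.237 in edgeR.

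Nascent RNA was present there in the control too. In run-on the first of these bins had 17 reads in the control and 199 in shCuff, and the second had 23 and 62. The 3 bins just before the window, from 22277001 to 22280000, had 41 run-on reads in the control and 133 in shCuff, a ratio of 3.15 (2.20 to 4.59). In total RNA the same 3 bins went from 15 reads to 2 and from 14 to 0. Run-on was thus higher and total RNA lower in shCuff on the distal side of the window, while both were higher within it.

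**Figure D5:**
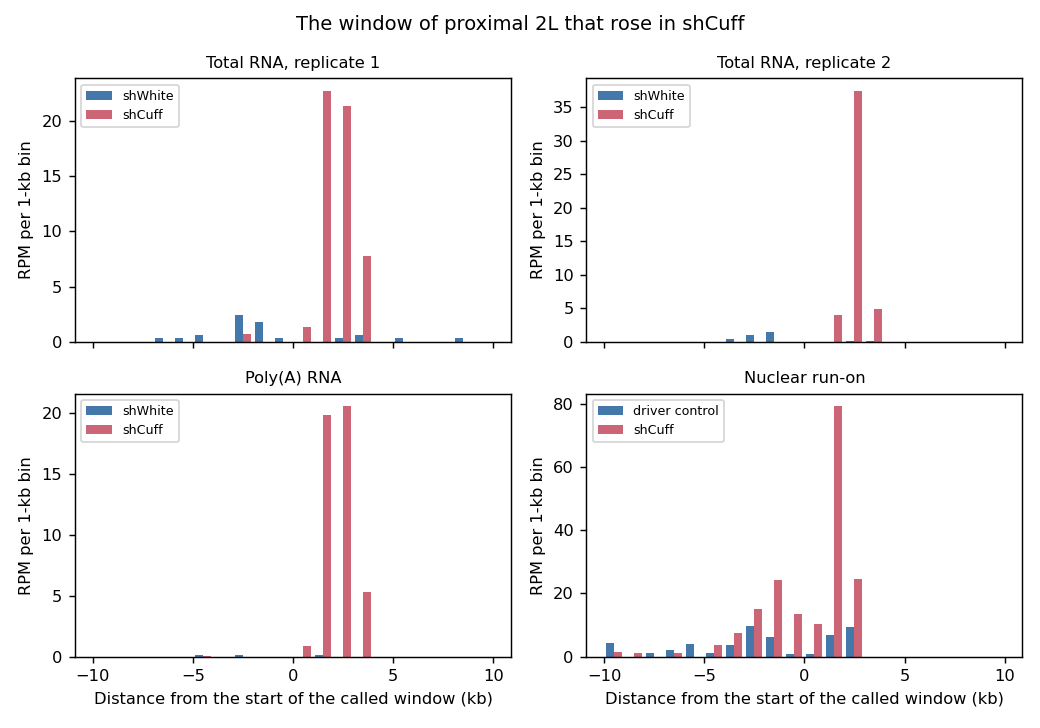
RPM per 1-kb bin around the window of the pericentric part that rose in shCuff, with distance from its start in kb on the horizontal axis; blue bars are controls and red bars shCuff, and each panel has its own scale. Total and poly(A) RNA of shCuff stand in adjacent bins between 0 and 4 kb, where controls have almost none, and in run-on the excess of shCuff also covers the 3 kb before the window.

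The other named windows did not pass edgeR's test. The next largest fitted rises among windows with 20 reads in each pair and 1 direction in both pairs started at 21228001, 20338001, 22350001 and 20308001, with log2 changes of 1.09 to 1.31 and adjusted p of 0.569 to 0.674. The largest fitted falls started at 20958001, 22340001, 22820001, 22390001 and 22640001, with log2 changes of -2.39 to -1.23 and adjusted p of 0.603 to 0.716. The first of these had 24 and 20 reads in replicate 1 but 32 and 0 in replicate 2.

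In single pairs, the share of features at least 2-fold lower was above that of the genome in all 4 pairs, and the share at least 2-fold higher was below it except in poly(A) RNA. These shares were not tested. In total RNA replicate 1, 10 of 105 features of the stretch with at least 20 reads were at least 2-fold higher and 5 lower, where 11.1% and 2.15% of such features of the genome were. In replicate 2 the counts were 43 and 23 of 157, against 38.5% and 8.88%. In poly(A) RNA they were 10 and 7 of 107, against 8.05% and 2.74%, and run-on had 23 and 36 of 185, against 15.5% and 10.3%. The 2 clusters made up 2 of the 5 lower features in replicate 1, 1 of 23 in replicate 2, 1 of 7 for poly(A) and 0 of 36 for run-on. The run-on features lower in shCuff were 17 of 67, or 25.4%, in the pericentric part, 8 of 27, or 29.6%, in the segment before it and 8 of 79, or 10.1%, between 38C_b and the histone genes.

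The most abundant bins of the surroundings differed less between shCuff and control in the first total RNA pair than in the second. The bin from 22247001 to 22248000 had 5799.9 RPM in shWhite and 5316 in shCuff in total RNA replicate 1, 8005 and 9645 in replicate 2, and 6187 and 5987 in poly(A) RNA. Its run-on level was 432 in the control and 486 in shCuff. It was thus over 10 times lower in run-on than in the RNA libraries. The 4 adjacent bins from 21678001 to 21682000 had another balance, with 659.8 to 1999 RPM in the run-on control and 249 to 541 in shWhite replicate 1. In shWhite replicate 2 they had 624 to 1807 RPM, and 3 of the 4 were higher in the run-on control than there.

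Within this group the second total RNA pair departed from the first in single bins. The bin from 22427001 to 22428000 had 249 RPM in shWhite and 186 in shCuff in replicate 1 but 1157 and 2482 in replicate 2. The bin from 21574001 to 21575000 had 12.2 and 15.6 in replicate 1 but 199.9 and 878 in replicate 2. The bin from 22428001 to 22429000 went from 965 to 1032 and from 2141 to 1095. Of these 3 bins, only that from 21574001 differed in the same direction in both pairs.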

How the data were processed

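The authors deposited, for each library, a table of the dm3 genome in bins of 1 kb with no gene names. Column 6 of the deposited tables holds counts of reads per bin; in the second library set 1 to 8 bins per library were not whole numbers, and these deposited values, taken as estimated counts, were rounded. Column 5 holds the authors' RPKM, which was not used for tests. The submitters' processing notes name cutadapt, Bowtie 0.12.7 and dm3. Not given in the sources used here are read filters, the counting tool and the placement of reads from repeated sequence. The deposited file names carry a code that differs between the library sets, and the labels do not state its meaning. As it may reflect mapping settings, levels of repeated sequence, clusters included, are not freely comparable between sets. Libraries came from a directional kit, per the labels' protocols. The other 6 samples (chromatin immunoprecipitation, inputs and small RNA) were not analysed here.

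Counts were scaled to library totals as RPM. Total RNA was tested with edgeR 4.0.16 (R 4.3.3) by its quasi-likelihood test with terms for library set and genotype, which leaves 1 residual degree of freedom, on clusters as whole features plus 10-kb windows with a mean count of at least 10, and on 1-kb bins with a mean of at least 1 RPM, with Benjamini-Hochberg adjustment over all features and a threshold of 0.05. The test was run on simulated data with the same dispersion for every feature and no effect of library set. That run therefore does not check the test under the set effect of these libraries. Where a group had 1 library, RPM ratios carry exact conditional (Clopper-Pearson) 95% intervals, and ratios of ratios and log2 differences between assays carry normal 95% intervals on the log scale. Both cover counting error only. Features with at least 20 reads over both libraries were counted past 2-fold. Alternatives used DESeq2 1.42.0, limma 3.58.1 with a pseudocount of 1 RPM, TMM factors, other filters and left-out libraries or bins. Fits with a library left out had no term for library set. The depth of 2438627 to 10932667 reads per library makes 3 reads equal to 0.274 to 1.23 RPM.

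The library set is shared by same-numbered total RNA libraries; their deviations from the group means correlated at 0.587 over 27388 bins, and with 2 pairs this says only that they moved together. The labels do not say whether replicates are from separate flies, so p-values cover only the spread among these libraries, which may be technical. The members and lists were chosen with earlier results of these data known. Named were the segments, the 10-kb sections of 38C, the top bins of clusters and surroundings by control or mean RPM, every called feature, and the 5 largest fitted rises and falls of windows with 20 reads in each pair and the same direction in both. The quiet windows, the 3 bins before the called window and the segments under other observations were chosen after their values were seen. Only position names bins here, as no dm3 annotation or sequence was used.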

Additional observations from a re-analysis of the deposited data

Results flagged for a closer look

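The response of 38C_a differed between library types: it was lower in shCuff in total RNA replicate 1 and higher in run-on. The log2 run-on response minus the log2 total RNA response was 3.82 (95% interval 2.71 to 4.93, counting error only) against replicate 1, which is of another library set. Against replicate 2, of the same library set as run-on, it was 0.70 (0.0032 to 1.39). All 50 shCuff reads of 38C_a in replicate 2 lay in the bin from 20105001 to 20106000, without which that total RNA ratio was 0. Each run-on group had 1 library, so the difference was not tested over replicates, and the controls of both responses differ in genotype. The run-on excess lay in the bin from 20104001 to 20105000, without which the run-on ratio was 0.960.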

How the results depend on the processing

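No fitted log2 change of 38C or of a called feature changed sign under the alternatives run, while some ratios crossed 1 without their top bin, among them that of 38C_a in run-on and those of the quiet windows in replicate 1, the pericentric part in replicate 2 (0.993) and the interval between the clusters in replicate 2 (0). In total RNA, 38C_b passed the threshold with DESeq2 (log2 change -2.91), limma (-2.56) and no filter on low counts (-2.71), and relative to the surroundings with limma (-2.52) and no filter (-2.65). Leaving out each library in turn, and with it the term for library set, gave -3.34 to -2.05, and -3.69 to -1.50 relative to the surroundings. TMM factors gave 38C_b an adjusted p of 0.0598. Without the replicate block (the term for library set), edgeR gave 38C_b -2.83 and 38C_a -1.80, each with an adjusted p of 1, and -2.86 and -2.10 relative to the surroundings. 38C_a did not pass in any fit, with -2.62 to -0.65 when a library was left out, and -2.88 to -0.34 relative to the surroundings.

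Of 2 bins called higher, 0 were without the replicate block, 0 with TMM factors and 1 with totals without the most abundant bin. The 1 window called higher became 0 without the block. Bins called lower went from 0 to 3 with limma and 1 without a filter, and 10-kb features called lower went from 0 to 1 with DESeq2, 1 with limma and 1 without a filter.

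Leaving out the bin with the most reads moved the ratio of the surroundings to 0.968 in total RNA replicate 1, 0.878 in replicate 2 and 0.914 in run-on, that of 38C_a to 0 in replicate 2 and 0.960 in run-on, and that of 38C_b to 0.0998 in replicate 2. Totals without the most abundant bin of the genome gave the surroundings 0.972 and 0.952 in total RNA. Alternatives chosen after seeing the data scaled to all quiet windows, which gave 38C_a 0.446 in replicate 2 and 1.12 in run-on, and 38C_b 0.0941 in replicate 2, 0.496 in run-on and 0.334 in poly(A) RNA. Relative to quiet windows without the called window, which holds 510 of their 811 shCuff poly(A) reads, 38C_b had 0.896 (0.580 to 1.39) in poly(A) RNA. The rule that chose quiet windows sets their shWhite poly(A) level low, so their poly(A) ratios, and values scaled to them, carry that choice. Quiet windows with the called window had ratios of 1.13, 2.02, 2.76 and 1.30 in the 4 pairs, and without their top bin 0.963 in replicate 1 and 1.99 in poly(A) RNA.

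Counts past 2-fold moved with their limits. At 50 reads they were 5 higher and 2 lower in replicate 1 (6.49% and 2.60%, against 6.78% and 1.34% over the genome), 16 and 19 in replicate 2 (13.9% and 16.5%, against 24.9% and 9.89%), 6 and 3 in poly(A) (6.67% and 3.33%, against 5.11% and 1.92%), and 15 and 13 in run-on (11.03% and 9.56%, against 12.1% and 7.28%). At 1.5-fold they were 17 and 15 in replicate 1 (16.2% and 14.3%, against 19.97% and 5.91%), 58 and 41 in replicate 2 (36.9% and 26.1%, against 46.3% and 17.1%), 17 and 18 in poly(A) (15.9% and 16.8%, against 15.2% and 6.37%), and 42 and 55 in run-on (22.7% and 29.7%, against 26.4% and 22.4%). Among 1-kb bins they were 26 and 12 (10.3% and 4.74%, against 8.14% and 3.29%), 126 and 136 (28.1% and 30.3%, against 29.5% and 23.3%), 28 and 22 (8.92% and 7.01%, against 7.31% and 3.30%), and 171 and 116 (25.5% and 17.3%, against 23.2% and 17.3%). The causes were not tested. Depth limits the clusters in poly(A) RNA, at 6 to 53 reads per library.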

Other observations

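A stretch of the arm with little RNA had less run-on signal in shCuff. From 21800001 to 22100000, chosen after its values were seen, the run-on control had 366 reads and shCuff 148, a ratio of 0.393 (95% interval 0.322 to 0.476, counting error only). Total RNA had 45 and 2 reads in replicate 1 but 24 and 248 in replicate 2, and poly(A) RNA had 24 and 12. The pairs of total RNA thus went opposite ways, and the 248 reads lay in 16 of 300 bins.

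The opposite was seen in run-on from 20878001 to 21048000, also chosen after its values were seen. The run-on control had 2258 reads and shCuff 3783, a ratio of 1.63 (1.54 to 1.71). Total RNA ratios were 0.933 (0.836 to 1.04) and 0.680 (0.639 to 0.724), and poly(A) RNA had 1.05 (0.976 to 1.12). No replicate check of the run-on values can be had from 1 library per group.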
